A study of Mus musculus with 48 samples.

Results

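A set of 6 genes of the circadian clock is described here: the activators Arntl (Bmal1), Clock and Npas2, and the repressors Bhlhe40 (Dec1), Bhlhe41 (Dec2) and Ciart (Chrono), which act on the DNA sites that those activators bind. They were chosen by name, not by their values, and all 6 were found among the 55401 gene IDs of the count table and passed the filter on low counts. Bhlhe41 and Ciart passed it mainly through the times of day when they were high. BMAL1, the product of Arntl, pairs with CLOCK or with the CLOCK paralog NPAS2, and the pair binds E-boxes and switches on genes that include its own repressors. DEC1 and DEC2 bind E-boxes themselves, and CHRONO binds BMAL1. A second loop, through the REV-ERB nuclear receptors, sets the daily rhythm of Arntl and Npas2 transcription.

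RNA from pieces of mouse jejunum, a middle stretch of small intestine, was sequenced in 2 genotypes at 6 circadian times (CT, hours of the animals' own day in constant darkness). The control carries floxed Bmal1 alleles (bmal1fl/fl) and the knockout is labelled Bmal1iec-/-. In this field iec commonly stands for intestinal epithelial cells, and the labels name no Cre driver, deleted exon, age, sex or diet. Sampling began at CT1 and was repeated every 4 h up to CT21. Each of the 12 groups had 4 libraries except knockout CT9 with 3, which made 24 control and 23 knockout libraries. Since the labels do not say that the libraries of a group came from separate animals, p-values measure the spread between these libraries, which may be technical.

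The 47 libraries held 4337218 to 6914138 counts (median 5432426). In 5 of them genes departed unusually widely from their medians over all libraries (interquartile range 0.600 to 1.12 on the log2 scale, against at most 0.476 in the other 42). Of these 5, 3 were knockout libraries of CT1 (replicates 1, 2 and 3), which leaves 1 library in that group without them. The others were replicate 1 of control CT21 and replicate 4 of knockout CT21. All 10 epithelial markers were detected, and their sum ranged from 20240 to 32680 CPM (counts per 1000000 counts, scaled by TMM) over the control libraries and from 21260 to 37310 CPM over the knockout libraries. In their mean over times 3 of them rose in the knockout and 2 fell, against 12.2% and 11% of all genes tested. Of 8 immune markers 7 fell, with a summed 130.3 to 219 CPM in knockout against 197 to 454 CPM in control libraries, and 3 of 8 fibroblast and endothelial markers fell. Of 6 smooth muscle, 7 neuron and glia and 2 acinar markers tested, 0 passed in edgeR, at an unadjusted p under 0.05 or in DESeq2. The part of these cells in the results below was not tested, and in bulk tissue fewer cells of a type and less RNA per cell cannot be told apart.

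Clock motifs were found in the promoters of Ciart, Bhlhe41 and Arntl. RefSeq windows of 300 bases (250 before the start, GRCm38.p6) were at hand for 5 of the 6 genes, all but Bhlhe40. The E-box CACGTG, which reads the same on both strands, occurs at least once in 7.15% of 32851 such windows and 3 or more times in 0.0883%. Ciart has 3, beginning at positions −116, −58 and −44 relative to the start base, which is counted as 0, with 52 and then 8 bases between them. Bhlhe41 has 1, at −153. The 250 bases before each start are shown because both genes kept a daily rhythm in the knockout, with the E-boxes in capitals (Ciart chr3:95882229-95882478, minus strand, and Bhlhe41 chr6:145865421-145865670, minus strand).
Ciart: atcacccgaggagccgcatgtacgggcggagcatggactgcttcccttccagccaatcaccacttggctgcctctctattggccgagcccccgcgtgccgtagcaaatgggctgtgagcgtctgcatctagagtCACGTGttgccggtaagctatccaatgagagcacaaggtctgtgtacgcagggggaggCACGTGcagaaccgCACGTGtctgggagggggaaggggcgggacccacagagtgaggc
Bhlhe41: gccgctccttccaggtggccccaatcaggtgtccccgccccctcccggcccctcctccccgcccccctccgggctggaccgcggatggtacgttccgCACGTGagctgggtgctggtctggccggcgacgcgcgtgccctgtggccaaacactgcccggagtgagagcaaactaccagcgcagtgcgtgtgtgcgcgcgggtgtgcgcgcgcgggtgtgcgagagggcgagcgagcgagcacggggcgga

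One of the 2 Arntl windows holds the core of the element that REV-ERB receptors bind, TAGGTCA, which occurs on either strand in 2.61% of windows. It lies on the plus strand at position 30 after the start, and the 30 bases around it (chr7:113207530-113207559, core in capitals) are shown because the Arntl rhythm was lost in the knockout.
Arntl: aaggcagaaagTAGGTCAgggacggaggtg
Neither motif was found in the Npas2 window or in the 3 Clock windows. The variants CACGTT and TGGGTCA, the D-box TTATGTAA and its variant TTACGTAA were also searched on both strands and were found in none of the windows of the 5 genes. A match is a stretch of letters, not a measured binding site, and no match says only that these letters are not in these windows. A link between these motifs and the rhythms was not tested, and Npas2 also lacked a passing rhythm in the knockout.

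Arntl (ENSMUSG00000055116.8, chr7:113207465-113314126, plus strand of mm10) is the targeted gene and encodes the partner that the other activators need. In control it swung widely over the day. Its 4 libraries had 71.4, 75.4, 76.5 and 78.5 CPM at CT1, and 66.1, 71.7, 86.4 and 89.5 CPM at CT21. At CT9 they had 8.48, 10.6, 11.3 and 11.3 CPM, and at CT13 9.76, 9.93, 12.5 and 13.9 CPM. The values between were 25.8, 29.99, 30.95 and 34.9 CPM at CT5 and 41.9, 46.0, 49.9 and 50.05 CPM at CT17. The order of the group means was CT21, CT1, CT17, CT5, CT13 and CT9, and only the libraries of CT21 and CT1, and those of CT13 and CT9, overlapped with their neighbour in that order.

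In the knockout Arntl stood at one level all day. The libraries had 18.4, 25.2, 30.8 and 34.8 CPM at CT1, 29.0, 30.7, 31.2 and 34.6 CPM at CT5, and 26.1, 26.7 and 31.8 CPM at CT9. They had 28.2, 29.4, 31.6 and 35.5 CPM at CT13, 26.9, 31.4, 31.7 and 31.9 CPM at CT17, and 26.0, 26.8, 33.9 and 37.0 CPM at CT21. Every neighbouring pair of groups overlapped, and the mean of the 6 group means, 29.9 CPM, was 38.2% of the highest control group. The counts cover the whole gene, so they do not show whether the floxed part is present in these transcripts. An antisense gene, Gm45355, overlaps exons of Arntl and had at most 1 count per library. The genes that overlap exons of Bhlhe40 (0610040F04Rik) and Bhlhe41 (Gm43909) had at most 5 and 1.

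The genotype difference in Arntl changed sign over the day. On the log2 scale it fell in the knockout at CT1 (−1.46, SE 0.14, adjusted p = 1.15e-09), CT17 (−0.62, SE 0.14, adjusted p = 0.00624) and CT21 (−1.34, SE 0.14, adjusted p = 2.06e-08). It rose at CT9 (1.43, SE 0.16, adjusted p = 1.60e-08) and CT13 (1.43, SE 0.15, adjusted p = 2.59e-09), and at CT5 the difference was 0.05 (SE 0.14, adjusted p = 0.998). At each of the 5 times that passed, the knockout libraries lay wholly below or wholly above the control libraries. These p-values come from edgeR's quasi-likelihood test with Benjamini-Hochberg adjustment over 15646 genes, as do all below unless another test is named. Averaged over the times the log2 difference was −0.09 (95% interval −0.20 to 0.03, adjusted p = 0.317), so the targeted gene did not pass in the mean over times. The difference itself varied among the times (interaction adjusted p = 2.04e-16). The tested mean over times averages log2 values. In CPM, the mean of the Arntl group means was 42.2 in control and 29.9 in knockout.

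**Figure D1:**
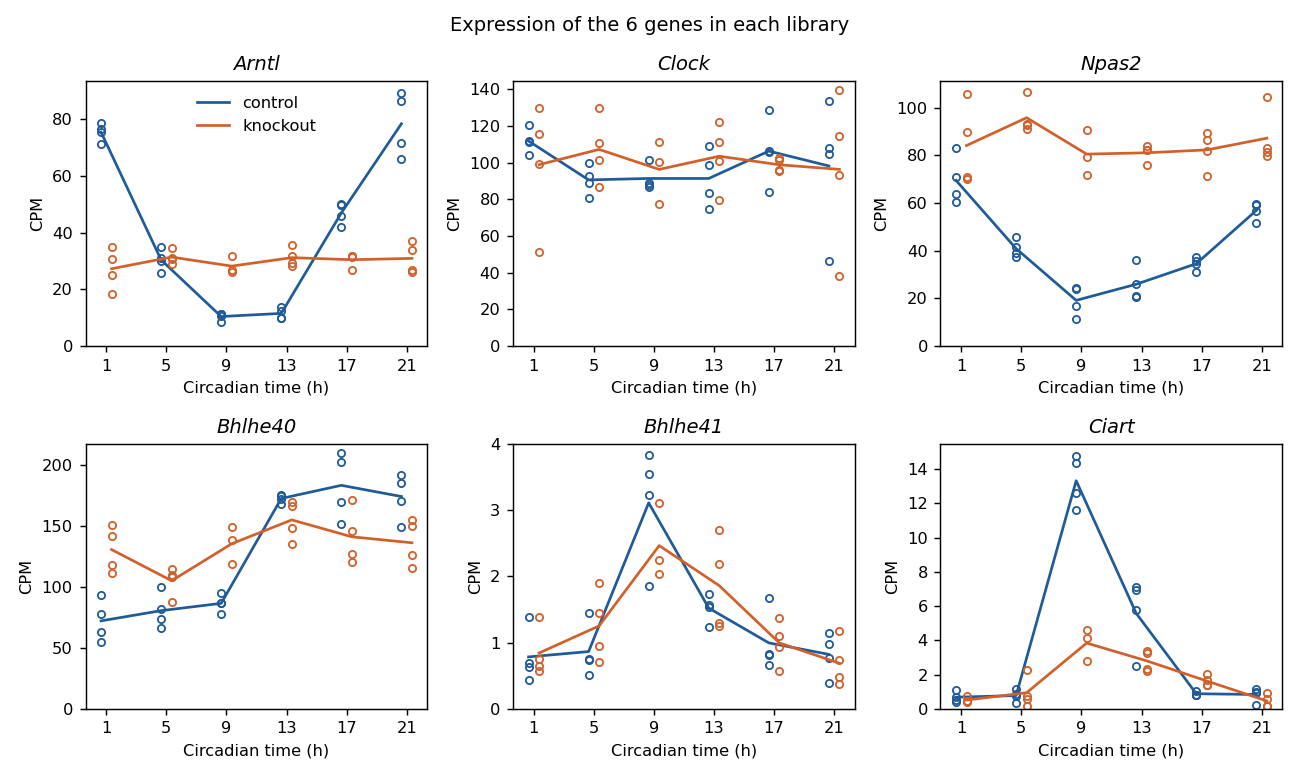
CPM (vertical axis, from 0) of each gene against circadian time in hours, with 1 open circle per library and lines through the group means, control in blue and knockout in orange. The knockout line of Arntl is level near 30 CPM and that of Npas2 stays at 80.5 to 95.8 CPM, while Bhlhe41 and Ciart are highest at CT9 in both genotypes.

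Npas2 (ENSMUSG00000026077.15, chr1:39193731-39363236, plus strand), the paralog that can replace CLOCK beside BMAL1, was higher in the knockout than in control. In control its libraries were highest at CT1, with 60.4, 63.6, 70.8 and 83.2 CPM, followed by CT21 with 51.8, 56.7, 59.3 and 59.8 CPM. They were lowest at CT9, with 11.5, 16.8, 23.9 and 24.5 CPM, and at CT13, with 20.8, 20.9, 26.1 and 36.0 CPM. At CT5 they had 37.4, 39.0, 41.6 and 45.6 CPM, and at CT17 31.0, 34.5, 35.5 and 37.3 CPM. The control order was thus CT1, CT21, CT5, CT17, CT13 and CT9, with overlap only among the last 3. Arntl has nearly the same order, with its lowest values also at CT9 and CT13.

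Knockout Npas2 had 69.98, 70.8, 89.8 and 106 CPM at CT1, 90.9, 92.6, 93.2 and 106 CPM at CT5, and 71.8, 79.1 and 90.5 CPM at CT9. It had 76.0, 82.2, 82.3 and 83.8 CPM at CT13, 71.4, 82.0, 86.3 and 89.3 CPM at CT17, and 79.8, 81.5, 82.9 and 105 CPM at CT21. All 6 knockout groups overlapped with their neighbours in order, and their mean, 85.2 CPM, was 122.5% of the highest control group. The libraries of the 2 genotypes overlapped only at CT1.

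The rise of Npas2 was largest where control was lowest. It was 2.07 on the log2 scale at CT9 (SE 0.17, adjusted p = 1.02e-11), 1.65 at CT13 (SE 0.16, adjusted p = 5.08e-10), 1.25 at CT17 (SE 0.16, adjusted p = 8.91e-07) and 1.23 at CT5 (SE 0.16, adjusted p = 1.20e-06). At CT21 it was 0.61 (SE 0.15, adjusted p = 0.0257), a call that was lost when 1 library was left out: control CT21 replicate 1 (adjusted p = 0.0568), replicate 2 (0.0599) or replicate 3 (0.0511), or knockout CT21 replicate 1 (0.106). At CT1 the difference was 0.28 (95% interval −0.03 to 0.59, adjusted p = 0.192). Its mean over times was 1.18 (SE 0.07, adjusted p = 2.52e-18). The genotype difference varied among the times (interaction adjusted p = 4.01e-06).

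Clock (ENSMUSG00000029238.11, chr5:76209868-76304792, minus strand) encodes the usual partner of BMAL1, and its transcript moved little. Control libraries ranged from 46.3 to 134 CPM (median 100.6) and knockout libraries from 38.0 to 139 CPM (median 101). Group means lay between 90.6 CPM at CT5 and 111.8 CPM at CT1 in control, and between 96.3 CPM at CT9 and 107 CPM at CT5 in knockout. The libraries of every neighbouring pair of groups in those orders overlapped, as did those of the 2 genotypes at every time. The mean over times differed by 0.03 on the log2 scale (95% interval −0.17 to 0.24, adjusted p = 0.862), and the intervals of the 6 single times together ran from −0.68 to 0.74.

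Clock was low in 3 single libraries, all among the 5 of wide spread: control CT21 replicate 1 (46.3 CPM), knockout CT1 replicate 3 (51.3 CPM) and knockout CT21 replicate 4 (38.0 CPM). The other 2 of the 5 had 99.1 and 115 CPM, and the remaining 42 libraries ranged from 74.5 to 139 CPM. With all libraries the 24-h rhythm of Clock in control did not pass (amplitude 0.13 on the log2 scale, adjusted p = 0.597). Without those 5 libraries it did, at an amplitude of 0.20 (adjusted p = 0.0133), where 29.0% of all genes tested passed. Control CT21 then averaged 115.5 CPM over 3 libraries in place of 98.2 CPM. With any single library left out, the control rhythm of Clock did not pass (amplitude 0.09 to 0.21, adjusted p 0.216 or more).

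**Figure D2:**
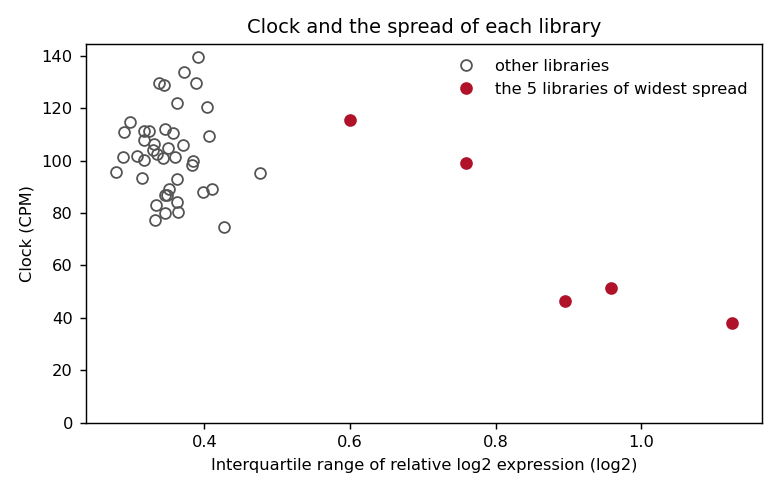
Clock CPM (vertical axis, from 0) against the interquartile range of relative log2 expression over all genes, with 1 circle per library and the 5 libraries of widest spread filled in red. The 3 lowest Clock values, 38.0 to 51.3 CPM, belong to the 3 libraries of the widest spread.

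Relative to Clock, Npas2 stood higher in the knockout. The ratio was taken within each library from counts per exon base and averaged on the log2 scale, so it does not depend on the scaling of libraries. From CT1 to CT21 in turn the geometric mean ratio in control was 1.77, 1.29, 0.576, 0.801, 0.940 and 1.78. In knockout it was 2.54, 2.58, 2.41, 2.27, 2.38 and 2.86. The libraries low in Clock had high ratios. At CT21 control replicate 1 had 3.207 (others 1.216 to 1.633) and knockout replicate 4 had 6.155 (others 2.071 to 2.449). Knockout CT1 replicate 3 had 3.905 (others 1.758 to 3.057). The libraries of the genotypes did not overlap from CT5 to CT17, with log2 differences of 0.998, 2.06, 1.503 and 1.34. A two-sided exact permutation test gave p = 0.0286 at CT5, CT13 and CT17, the smallest that 4 libraries against 4 can give, and p = 0.0571 at CT9, the smallest for 4 against 3. None of the 12 ratio tests passed after Benjamini-Hochberg adjustment (the lowest adjusted value was 0.114). A lone test at its smallest p could not pass this adjustment, and a CT9 test could not pass at all. No conclusion is therefore drawn from the tests that did not pass.

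**Figure D3:**
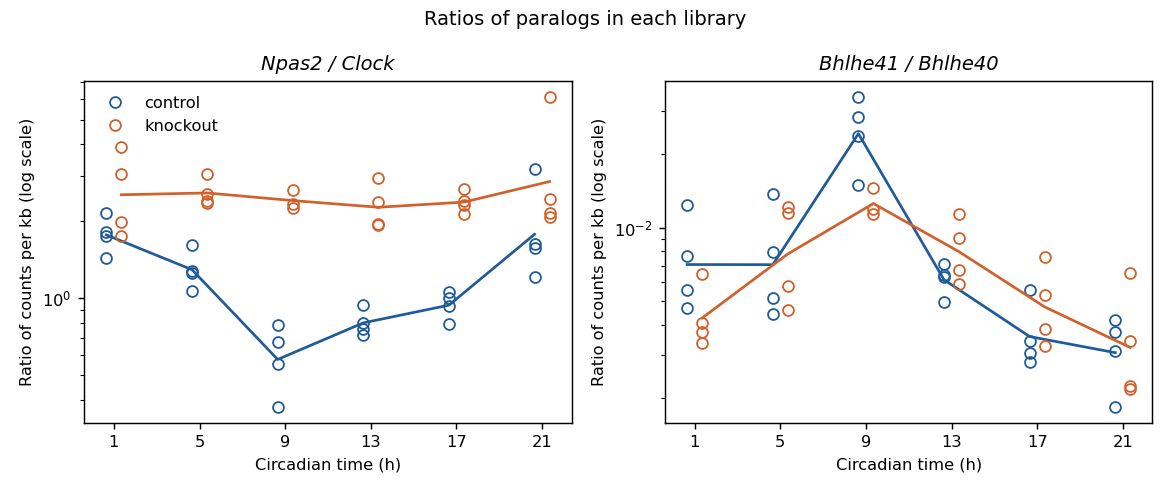
Ratio of Npas2 to Clock (left) and of Bhlhe41 to Bhlhe40 (right), each in counts per exon base, on log axes against circadian time in hours, with 1 circle per library and lines through the geometric means. The control mean of Npas2 to Clock falls to 0.576 at CT9 while the knockout means stay between 2.27 and 2.86. The highest of these, at CT21, includes a library at 6.155. Bhlhe41 to Bhlhe40 is highest at CT9 in both genotypes.

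Bhlhe40 (ENSMUSG00000030103.11, chr6:108660629-108666925, plus strand) encodes an E-box repressor that also responds to many stimuli outside the clock. In control it had a low and a high stretch of the day. Its libraries had 54.6, 63.3, 77.8 and 93.3 CPM at CT1, 66.6, 73.7, 81.8 and 100.4 CPM at CT5, and 77.8, 86.9, 86.9 and 95.03 CPM at CT9. They had 168, 172, 175 and 176 CPM at CT13, 152, 169.9, 203 and 210.0 CPM at CT17, and 149, 171, 185 and 192 CPM at CT21. All 12 libraries of the second stretch lay above all 12 of the first, and within each stretch the groups overlapped.

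The knockout values of Bhlhe40 were closer together. They were 111, 118, 142 and 151 CPM at CT1, 88.0, 109, 109.7 and 115 CPM at CT5, and 119, 138 and 149.7 CPM at CT9. Later in the day they were 136, 148, 167 and 169.8 CPM at CT13, 121, 127, 146 and 171 CPM at CT17, and 115, 126, 149.8 and 155 CPM at CT21. Every neighbouring pair of knockout groups overlapped, and the highest group mean was 1.48 times the lowest, against 2.54 times in control.

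Bhlhe40 rose in the knockout at 2 of the 3 times when control was low. The log2 fold change was 0.86 at CT1 (SE 0.14, adjusted p = 2.12e-04) and 0.65 at CT9 (SE 0.15, adjusted p = 0.00725), with no overlap between the libraries of the genotypes. It did not pass at CT5 (0.38) or at the 3 later times, where it was −0.16, −0.38 and −0.35 in turn (adjusted p between 0.196 and 0.715). Without the 5 libraries 1 knockout library is left at CT1, which is assumed to vary like the other groups. It had 118 CPM, above all 4 control libraries, and the value was then 0.67 (adjusted p = 0.163). The CT9 call was lost without knockout CT9 replicate 3 (0.58, adjusted p = 0.0615). The interaction passed (adjusted p = 2.61e-05), also without the 5 libraries (adjusted p = 9.68e-04).

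The mean of Bhlhe40 over times was 0.17 higher on the log2 scale (SE 0.06, adjusted p = 0.0321), a small rise that depended on single libraries. It was lost (adjusted p between 0.0501 and 0.0628) without control CT1 replicate 2 or 3, CT5 replicate 1 or 4, CT9 replicate 3, CT17 replicate 1 or 4 or CT21 replicate 3. It was also lost without knockout CT5 replicate 4, CT9 replicate 3, CT13 replicate 3, CT17 replicate 2 or CT21 replicate 2.

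Bhlhe41 (ENSMUSG00000030256.11, chr6:145858243-145865558, minus strand), the paralog of Bhlhe40, was scarce, with 2 to 24 counts per library (median 6). It was highest at CT9 in both genotypes: 1.85, 3.22, 3.54 and 3.83 CPM in control and 2.03, 2.25 and 3.12 CPM in knockout. CT13 followed, with 1.24, 1.54, 1.56 and 1.74 CPM in control and 1.25, 1.29, 2.19 and 2.71 CPM in knockout. At the other 4 times control libraries had 0.392 to 1.68 CPM and knockout libraries 0.368 to 1.91 CPM. The genotypes overlapped at every time, and no genotype difference passed. The mean over times differed by 0.05 on the log2 scale (95% interval −0.29 to 0.39, adjusted p = 0.883), and the widest interval of a single time, at CT21, ran from −1.24 to 0.67.

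Per exon base, and so comparable between genes, Bhlhe40 stood far above its paralog. Its mean over the control groups was 27.3 CPM per kilobase against 0.201 for Bhlhe41. Within control libraries the ratio of Bhlhe41 to Bhlhe40 was highest at CT9 (geometric mean 0.0243) and lowest at CT21 (0.00308). At CT9 the knockout ratio was 0.0126, and the libraries of the genotypes did not overlap (log2 difference −0.95, two-sided exact permutation p = 0.0571, the smallest that 4 against 3 can give, adjusted 0.137).

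Ciart (ENSMUSG00000038550.10, chr3:95878503-95882251, minus strand) encodes CHRONO, a repressor that acts through BMAL1. Its group mean was highest at CT9 in both genotypes, and the value there was lower in the knockout. In control CT9 stood above CT13 without overlap, while in the knockout the libraries of these 2 times overlapped. Control libraries had 11.6, 12.6, 14.3 and 14.8 CPM at CT9 and 2.50, 5.75, 6.95 and 7.10 CPM at CT13. The knockout had 2.77, 4.16 and 4.60 CPM at CT9 and 2.22, 2.34, 3.25 and 3.39 CPM at CT13. At CT17 the higher values were in the knockout: 1.38, 1.41, 1.69 and 2.02 CPM, against 0.815, 0.828, 0.831 and 1.05 CPM in control. These 2 sets did not overlap, nor did those at CT9. The CT17 values rest on 4 to 5 counts per control library and 8 to 11 per knockout library. Their difference did not pass in edgeR (adjusted p = 0.443).

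At its low times Ciart was close to the counting limit. At CT1 it had 0.418, 0.519, 0.695 and 1.08 CPM in control and 0.381, 0.433, 0.465 and 0.757 CPM in knockout. At CT5 it had 0.363, 0.737, 0.860 and 1.13 CPM in control and 0.178, 0.566, 0.726 and 2.29 CPM in knockout. At CT21 it had 0.230, 0.952, 0.985 and 1.18 CPM in control and 0.161, 0.184, 0.550 and 0.937 CPM in knockout. These values rest on 1 to 12 counts per library, where 3 counts correspond to 0.439 to 0.703 CPM, and the genotypes overlapped at all 3 times. Such limits cover counting error only, and reads counted without molecular identifiers are not independent molecules.

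Ciart fell in the knockout at CT9 (log2 fold change −1.78, SE 0.32, adjusted p = 2.60e-04). At CT13 the value was −0.998 (SE 0.31, adjusted p = 0.0713), and it passed in DESeq2 (adjusted p = 0.0403), without the 5 wide libraries (0.0267) and without control CT13 replicate 4 (0.0152), knockout CT5 replicate 4 (0.0342) or knockout CT21 replicate 4 (0.0481). At CT17 the value was 0.87 (SE 0.44, adjusted p = 0.443). The difference varied among the times (interaction adjusted p = 0.0325). That call was lost (adjusted p between 0.0511 and 0.0986) without control CT1 replicate 1, CT9 replicate 1 or 2 or CT17 replicate 1, 2 or 4, and without knockout CT9 replicate 2 or 4 or CT17 replicate 3 or 4. Without the 5 wide libraries its adjusted p was 0.0120.

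The mean of Ciart over times was −0.50 (95% interval −0.89 to −0.11) and did not pass (adjusted p = 0.0535). Without the 5 wide libraries it was −0.70 (adjusted p = 0.0217). It also passed (adjusted p between 0.00532 and 0.0499) without control CT1, CT5, CT9 or CT13 replicate 4 or CT21 replicate 1. The same held without knockout CT1 replicate 1, CT5 replicate 4, CT9 replicate 3, CT13 replicate 2 or 3, CT17 replicate 3 or CT21 replicate 3 or 4.

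**Figure D4:**
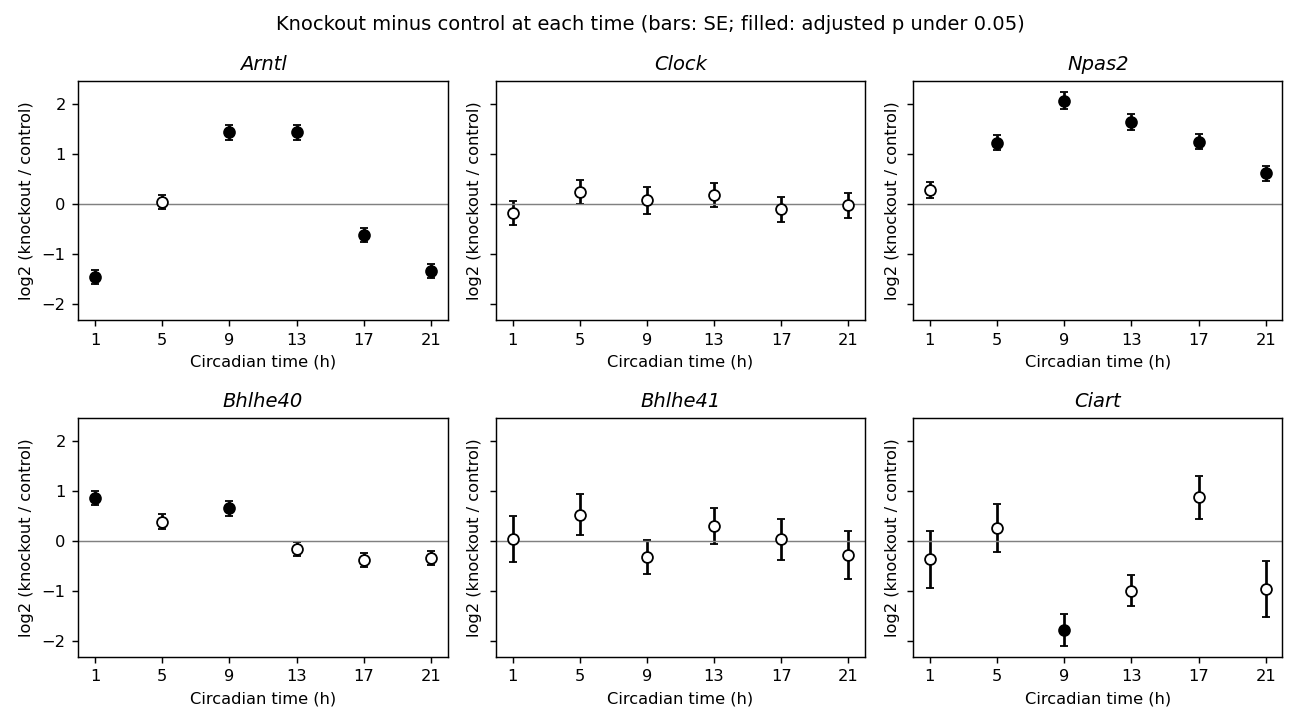
Log2 fold change of knockout over control (vertical axis) with its SE at each circadian time in hours, 1 panel per gene, filled where the adjusted p of edgeR's test was under 0.05. Arntl goes from −1.46 at CT1 to 1.43 at CT9 and CT13 and back to −1.34 at CT21, Npas2 lies above 0 throughout, and no point of Clock or Bhlhe41 is filled.

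Counted over the 6 genes, 2 rose in the mean over times (Npas2 and Bhlhe40) and 0 fell in edgeR. Of all genes tested 12.2% rose and 11% fell. At an unadjusted p under 0.05 the count of falls was 1 (Ciart), and DESeq2 also gave 0. At CT1, where 20.7% of all genes passed, 1 of the 6 rose (12.6% of all genes) and 1 fell (8.07%). At CT5, with 0.837% of all genes passing, 1 rose (0.499%) and 0 fell in edgeR (0.339%), also 0 at an unadjusted p under 0.05 and in DESeq2. CT9 had 3 that rose (1.49%) and 1 that fell (2.11%), against 3.6% of all genes in either direction. For CT13, where 3.39% of all genes passed, these counts were 2 (2.04%) and 0 in edgeR (1.35%), with 1 fall at an unadjusted p under 0.05 and 1 in DESeq2, both Ciart. CT17 had 1 rise (0.684%) and 1 fall (1.41%), against 2.09% of all genes, and CT21 had 1 (0.677%) and 1 (0.754%), against 1.43%. The share at CT1 fell to 0.243% without the 5 wide libraries, which leaves 1 knockout library there, assumed to vary like the other groups, and the value of Arntl was then −1.15 (adjusted p = 2.50e-04). Beside the CT1 values of Arntl and Bhlhe40, 6 of 10 epithelial markers rose in the knockout at CT1 (median of the 10 0.54 on the log2 scale), 5 of 8 fibroblast and endothelial markers fell (median −0.45) and 4 of 8 immune markers fell (median −1.12), and their part was not tested. The difference varied among the times for 4 of the 6 genes (1.18% of all genes tested), and for 3 of those 4 the mean over times differed by 0.50 or less on the log2 scale.

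Daily variation was present in 5 of the 6 genes in control and in 2 in the knockout, whether tested among the 6 group means without a shape (14.8% and 12% of all genes tested passed) or as a 24-h cosine (20.5% and 14.6%). The amplitude is given from mid-level to peak on the log2 scale. In control Arntl had an amplitude of 1.62 (SE 0.07) and peaked at CT22.4 (SE 0.16 h), and Npas2 had 0.86 (SE 0.07) with a peak at CT23.3 (SE 0.31 h). Bhlhe40 had 0.77 (SE 0.07) with a peak at CT16.7 (SE 0.34 h), Bhlhe41 0.95 (SE 0.17) at CT10.2 (SE 0.64 h) and Ciart 2.46 (SE 0.27) at CT10.4 (SE 0.35 h). The 2 activators thus peaked near the end of the animals' night, Bhlhe41 and Ciart in the later part of the subjective day, and Bhlhe40 between them.

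The knockout lacked a passing rhythm in both rhythmic activators and in Bhlhe40. The amplitude was 0.04 for Arntl (adjusted p = 0.894), 0.08 for Npas2 (adjusted p = 0.625) and 0.20 for Bhlhe40 (adjusted p = 0.104). The genotypes differed in the rhythm, amplitude and peak tested together, for these 3 genes (adjusted p = 2.34e-16, 7.55e-07 and 5.63e-04), against 1.5% of all genes tested. Differences among times in knockout Bhlhe40 missed the threshold in edgeR (adjusted p = 0.0728) and passed in DESeq2 (adjusted p = 0.0359). They also passed without knockout CT21 replicate 1 (0.0487) or replicate 4 (0.0420).

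Bhlhe41 and Ciart, 2 of the 5 members with a passing control rhythm, kept a rhythm that passed in the knockout. Beside these 2 of 5, 1110 of the 3205 genes that passed in control also passed in the knockout. A rhythm that passed in both genotypes was thus not particular to these 2 genes. Those 1110 were 7.09% of all genes tested. Bhlhe41 had an amplitude of 0.92 (SE 0.17, adjusted p = 0.00227) with a peak at CT10.1 (SE 0.67 h), close to its control values, and the difference between genotypes did not pass (adjusted p = 0.999). Ciart had 1.58 (SE 0.28, adjusted p = 2.54e-04) with a peak at CT11.3 (SE 0.62 h), and the difference did not pass either (adjusted p = 0.407). The interaction test, which assumes no cosine shape, did pass for Ciart (adjusted p = 0.0325), a call lost without any of several single libraries. A difference that does not pass does not show equal rhythms, and the amplitude of Ciart rests in part on low times with 1 to 12 counts per library. Both genes met the filter on low counts (about 10 in 3 or more libraries) mainly at CT9, and Ciart also at CT13. The shares over all genes cover only genes that passed this filter.

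**Figure D5:**
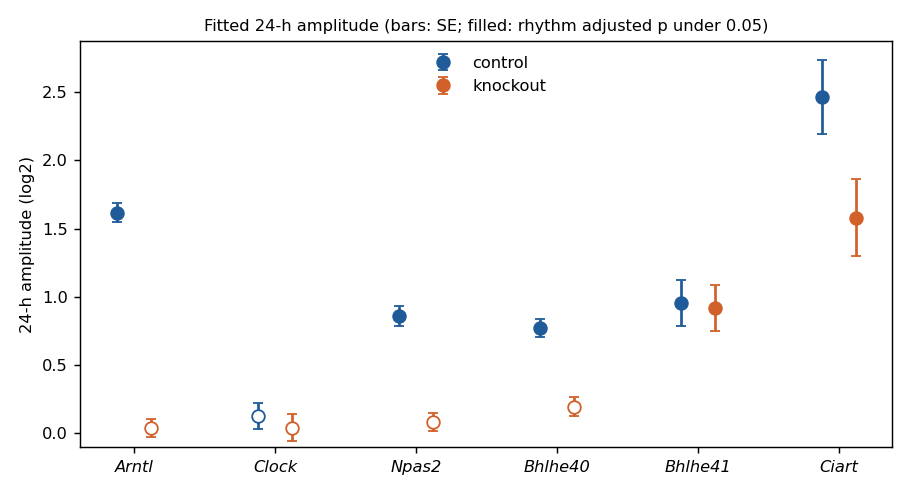
Fitted 24-h amplitude on the log2 scale (vertical axis) with its SE for each gene, control in blue and knockout in orange, filled where the rhythm's adjusted p in edgeR was under 0.05. Arntl, Npas2 and Bhlhe40 drop from 1.62, 0.86 and 0.77 to 0.04, 0.08 and 0.20, and Bhlhe41 and Ciart are filled in both genotypes.

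Across the 12 group means of log2 CPM, which share their libraries and are given as a description, Bhlhe41 and Ciart followed each other most closely among the 6 (Pearson r = 0.92). Arntl went against Ciart (−0.73) and Bhlhe41 (−0.65). Among all genes tested, those most like Arntl were Rragd (0.95), which encodes a GTPase of nutrient signalling to mTORC1, Snap29 (0.92) and Idnk (0.92), and those most opposite were the amino acid transporter Slc7a7 (−0.92) and Lsm14b (−0.92). Npas2 was most like Dpf3 (0.99), a subunit of a chromatin remodelling complex, Bok (0.97), a BCL2 family member, and Gm2061 (0.97), and most opposite to Gbp3 (−0.94) and Lax1 (−0.94).

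Dpf3, the closest of these, had a control mean of 9.61 CPM at CT1 and 3.55 CPM at CT9 and knockout means of 9.06 to 11.4 CPM. At CT1 its knockout mean, 9.32 CPM, was below that of control, unlike that of Npas2. Bhlhe40 was most like Nrarp (0.95), a Notch target, 5830408C22Rik (0.94) and Gm826 (0.93), and most opposite to Lrrcc1 (−0.95) and D630039A03Rik (−0.92). Besides Ciart, Bhlhe41 was most like the cold-inducible RNA-binding protein gene Rbm3 (0.90) and Gm38228 (0.89), and most opposite to Rasl11a (−0.91) and Wdyhv1 (−0.90). Ciart, after Bhlhe41, was most like Gm38228 (0.90) and Per1 (0.90), a clock repressor, and most opposite to Wdyhv1 (−0.91) and Gm46559 (−0.91). For Clock, whose group means hardly varied, the closest were Tmem167b (0.89), Zfp605 (0.89) and Trim2 (0.86), and the most opposite Atf5 (−0.82) and Gm45769 (−0.81). Some of the genes named here were close to the counting limit. Group means were 0.486 to 1.28 CPM for Gm38228, 0.611 to 1.72 CPM for Nrarp and 0.416 to 2.83 CPM for Gm826.

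A list of 20 other clock genes and genes driven through E-boxes held 4 that rose in the knockout in the mean over times, 9 that fell and 7 that passed in neither direction. Over all genes tested the shares that rose and fell were 12.2% and 11%. The median log2 fold change of the list was −0.24, against −0.01 over all genes. The repressor Cry1 was among those that rose (1.07, from 29.1 to 54.6 CPM, adjusted p = 6.12e-13). The largest falls were in Nr1d1 (−1.94, from 58.8 to 9.40 CPM, adjusted p = 1.12e-17) and Nr1d2 (−1.80, from 65.8 to 17.0 CPM, adjusted p = 2.24e-17), which encode the REV-ERB repressors of Arntl and Npas2. A 24-h rhythm passed for 16 of the 20 in control and 9 in knockout, against 20.5% and 14.6% of all genes tested. The rhythm differed between genotypes for 13, against 1.5% of all genes tested.

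Among 12 helix-loop-helix relatives of genes in the set, 0 rose and 2 fell, against 12.2% and 11% of all genes tested. The count of rises was also 0 at an unadjusted p under 0.05 and in DESeq2. The largest fall that passed was in Hif1a, which encodes a hypoxia-inducible factor (−0.37, SE 0.10, adjusted p = 0.00487). Arntl2, a paralog of Arntl, was scarce at 1.64 CPM in control and 1.47 CPM in knockout (log2 difference −0.18, adjusted p = 0.461). The rhythm differed between genotypes for 0 of the 12 in edgeR, 2 at an unadjusted p under 0.05 and 0 in DESeq2. In edgeR it differed for 1.5% of all genes tested.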

How the data were processed

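Whole-number read counts per gene, deposited by the authors as 1 table of raw counts, were used for 47 of 48 labelled samples; knockout CT9 replicate 1 is not analysed here, and 0 columns of values were unused. Per the labels' protocols, RNA was extracted with a NucleoSpin RNA kit and libraries were made with a TruSeq Stranded mRNA kit. Per the submitters' processing notes, the tools named are DESeq2 1.22.0, featureCounts 1.4.6, STAR 2.7.5c, Trimmomatic 0.39, FastQC 0.11.5 and SAMtools 1.3.1, and the build is mm10. The annotation, the strand setting and other settings: not given in the sources used here. Gene IDs were matched to GENCODE M21 (54349 with the version, 792 without it, 260 unmatched), which gave symbols, positions and exon lengths. Replicate numbers follow accession order and pair nothing.

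Genes were filtered with filterByExpr on the 12 groups (15646 kept), libraries scaled by TMM, and edgeR 4.0.16 (R 4.3.3) quasi-likelihood models with robust variance fitted to all libraries: 1 mean per group (35 residual degrees of freedom), and per genotype a level with a 24-h cosine and sine (41). P-values were adjusted by Benjamini-Hochberg over all genes tested at 0.05. CPM use TMM-scaled library sizes. Ratios were compared by exact permutation (scipy 1.17.1). Likeness to other genes is Pearson's r over the 12 group means of log2 CPM (prior count 2). The named genes are all 6 members, the 3 most like and 2 most opposite genes of each, the 2 largest rises and falls among 20 other clock genes, and, among 12 relatives, the largest passing rise and fall and Arntl2. One gene that this rule names is not reported here. The members, lists, rules and the set of 5 libraries left out together were chosen with earlier results of these data known.

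Alternatives were DESeq2's size factors, upper quartile scaling, no filter, DESeq2 1.42.0, a ratio with 0.5 added to each count, and leaving out each library or the 5 of widest spread. The fits were tested on simulated counts. Within groups, libraries differed by more than sampling noise (chi-square per degree of freedom at least 3.25 over 69 pairs).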

Additional observations from a re-analysis of the deposited data

Results flagged for a closer look

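The difference between genotypes varied among the times for 4 genes (interaction test in edgeR, adjusted over 15646 genes): Arntl (adjusted p = 2.04e-16), Npas2 (4.01e-06), Bhlhe40 (2.61e-05) and Ciart (0.0325).

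In 6 of 66 sets of 4 libraries 1 library stood apart by Dixon's criterion, which chance alone meets in about 1 of 20 sets. Arntl had 26.9 CPM in knockout CT17 replicate 4, against 31.4 to 31.9 CPM in the others of its group. Clock had 101.5 CPM in control CT9 replicate 4, against 86.9 to 89.1 CPM. Npas2 had 106.4 CPM in knockout CT5 replicate 1 (others 90.9 to 93.2 CPM) and 104.6 CPM in knockout CT21 replicate 1 (others 79.8 to 82.9 CPM). Control CT17 replicate 3 stood apart both for Bhlhe41, with 1.68 CPM against 0.662 to 0.831 CPM, and for Ciart, with 1.05 CPM against 0.815 to 0.831 CPM, each of these on 8 counts or fewer.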

How the results depend on the processing

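Low counts limit Bhlhe41 and Ciart. The 5 wide libraries include 3 of 4 at knockout CT1 and 1 of 4 in each group at CT21, and without them knockout CT1 is 1 library whose spread is taken from the other groups. All calls of Arntl, and those of Npas2 other than at CT21, kept their side of the threshold under every alternative run. No paired analysis was possible because the labels number no replicates.

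Some counts of members changed. Members higher in the mean over times went from 2 to 1 and members lower from 0 to 1 with upper quartile scaling (Bhlhe40 0.15, adjusted p = 0.0546; Ciart −0.52, adjusted p = 0.0466) and without the 5 libraries (Bhlhe40 0.15, adjusted p = 0.0816; Ciart −0.70, adjusted p = 0.0217), in edgeR. Members higher at CT1 went from 1 to 0 without the 5 libraries, and members lower at CT13 from 0 to 1 without them and in DESeq2. Leaving out single libraries, the counts ranged from 1 to 2 and from 0 to 1 for members higher and lower in the mean over times, from 0 to 1 for members lower at CT13, and from 0 to 1 for members higher at CT21. They ranged from 2 to 3 for members higher at CT9 and for members that differed among times in the knockout, and from 3 to 4 for the interaction.

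Signs that turned were all of log2 differences that passed no threshold, and the cause was not tested. Without the 5 libraries Clock turned to 0.17 at CT1 and 0.0093 at CT21, Bhlhe41 to −0.070 in the mean and −0.52 at CT1, its rhythm difference to 0.089, and the Bhlhe41 to Bhlhe40 ratio at CT21 to −0.12. With upper quartile scaling Bhlhe41 at CT1 was −0.0022. Leaving out single libraries, the ranges that crossed 0 were −0.040 to 0.11 for Arntl at CT5, and for Clock −0.011 to 0.072 (mean), −0.35 to 0.034 (CT1), −0.033 to 0.22 (CT9) and −0.26 to 0.24 (CT21). They were −0.0100 to 0.12 (mean), −0.29 to 0.45 (CT1), −0.16 to 0.37 (CT17) and −0.13 to 0.077 (rhythm difference) for Bhlhe41, and −0.65 to 0.59 for Ciart at CT5. The ratio of Bhlhe41 to Bhlhe40 ranged from −0.080 to 0.47 at CT5 and from −0.27 to 0.26 at CT21.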
